A study of Mus musculus with 3 samples.

Results

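The genes described here encode the CD94/NKG2 receptor family, the NK1.1 antigen, CD160 and the 2 adaptors of NKG2D, DAP10 and DAP12. The 9 genes (Klrd1, Klrc1, Klrc2, Klre1, Klrk1, Hcst, Tyrobp, Klrb1c and Cd160) were matched by symbol among the 30406 gene identifiers that the 3 libraries share. All 9 were found under their Ensembl identifiers and all 9 had UMIs (unique molecular identifiers, 1 per captured RNA molecule) in every library.

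Single-cell RNA-seq was made from thymic cells sorted as TCRβ+, CD1d tetramer+, CD24- and NK1.1-. The sort leaves out the CD24+ and NK1.1+ stages of invariant NKT (iNKT) cells. The paper found cells of the NKT2 and NKT17 subsets within it. The first library came from 7-week-old C57BL/6 mice without bone marrow transplantation (BMT). The other two came from F1 recipients of a C57BL/6 x BALB/c cross, lethally irradiated, 16 weeks old and 9 weeks after BMT, that had received T cell-depleted C57BL/6 bone marrow, either alone (BM only) or together with C57BL/6 splenic cells (BM + Spl, the mice with GvHD). All BMT mice thus shared irradiation, the F1 host thymus and the C57BL/6 graft, and host-derived cells were not told apart from donor cells. Each library pooled mice and each condition had 1 library, so no test between conditions was possible. The intervals given are exact 95% intervals and cover counting error only. Because the sort removed cells with NK1.1 protein on the surface, Klrb1c was measured only in cells below that gate.

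CD94, the product of Klrd1, reaches the cell surface paired with an NKG2 chain. With NKG2A (Klrc1) it forms an inhibitory receptor and with NKG2C (Klrc2) an activating one, and both bind the MHC class Ib molecule Qa-1. NKG2D (Klrk1) is an activating receptor for stress-induced ligands that signals through DAP10 (Hcst) and, in mice, also through DAP12 (Tyrobp). Within iNKT cells these receptors are known from the NKT1 subset, which acquires NK1.1 late in its thymic maturation.

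The 6 lectin-like members lie together on chromosome 6 of GRCm38 within 900489 bases, the NK gene complex. Klrb1c occupies 6:128778485-128789215 on the minus strand. It is followed by Klre1 at 6:129577905-129585827 and Klrd1 at 6:129591782-129598775, both on the plus strand. Klrk1 (6:129610323-129623864), Klrc2 (6:129647496-129660689) and Klrc1 (6:129666015-129678973) follow on the minus strand. Tyrobp (7:30413760-30417585, plus strand) and Hcst (7:30417712-30419854, minus strand) face each other tail to tail with 126 bases between them. Cd160 stands alone at 3:96798763-96829351 on the minus strand. All 9 are annotated as protein-coding genes in GENCODE vM21.

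Promoters are shown for the genes of NK1.1, NKG2D, NKG2C and NKG2A, which were picked with their values known. RefSeq promoter windows on GRCm38.p6 reach from 250 bases before to 50 bases after a start and were matched for 7 of the 9 genes, in 10 windows. Klrd1 and Tyrobp had no entry. Capitals mark the 6 letters TGTGGT or their reverse complement ACCACA, the core recognised by Runx factors. The letters were picked after the windows had been looked at. The windows are Klrb1c at chr6:128788592-128788891, Klrk1 at chr6:129623815-129624114, Klrc2 at chr6:129660547-129660846 and Klrc1 at chr6:129678924-129679223, all on the minus strand and written 5′ to 3′ along the gene.
Klrb1c: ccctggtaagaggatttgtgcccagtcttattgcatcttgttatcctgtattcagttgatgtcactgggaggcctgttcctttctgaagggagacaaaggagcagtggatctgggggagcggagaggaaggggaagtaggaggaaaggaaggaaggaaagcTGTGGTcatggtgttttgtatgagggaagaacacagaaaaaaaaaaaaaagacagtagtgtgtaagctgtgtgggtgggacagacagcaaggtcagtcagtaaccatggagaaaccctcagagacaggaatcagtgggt
Klrk1: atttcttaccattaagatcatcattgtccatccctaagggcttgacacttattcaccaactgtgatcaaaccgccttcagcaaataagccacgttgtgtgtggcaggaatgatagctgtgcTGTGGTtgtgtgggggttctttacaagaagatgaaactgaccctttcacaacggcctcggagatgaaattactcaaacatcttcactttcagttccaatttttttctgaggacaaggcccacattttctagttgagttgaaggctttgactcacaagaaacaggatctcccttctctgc
Klrc2: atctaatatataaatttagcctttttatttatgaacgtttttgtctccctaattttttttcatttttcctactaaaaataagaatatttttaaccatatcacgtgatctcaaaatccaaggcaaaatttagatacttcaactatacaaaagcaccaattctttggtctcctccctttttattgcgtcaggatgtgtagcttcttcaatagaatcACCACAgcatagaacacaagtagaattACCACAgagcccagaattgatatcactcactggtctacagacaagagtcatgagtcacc
Klrc1: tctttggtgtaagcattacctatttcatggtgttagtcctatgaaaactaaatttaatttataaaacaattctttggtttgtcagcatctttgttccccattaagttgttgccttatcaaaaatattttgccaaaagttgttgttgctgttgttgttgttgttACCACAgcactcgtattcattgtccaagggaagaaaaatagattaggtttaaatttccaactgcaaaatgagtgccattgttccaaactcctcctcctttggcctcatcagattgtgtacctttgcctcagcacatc
The Runx core was present in 8 of the 10 windows, where 16.8% of all 32851 windows held it, and in 6 of the 7 genes, where 18.9% of all genes did. The 2 Klrc2 windows overlap and hold the same matches, and the 2 Klre1 windows overlap too. Of the 2 Klre1 windows, not printed, 1 held the core and 1 did not. The core began 89 bases before the start in Klrb1c, 129 bases before it in Klrk1, 87 bases before it in Klrc1, and 36 and 9 bases before it in the Klrc2 window printed. The T-box core AGGTGT or its reverse complement ACACCT was found in 0 of the 10 windows and in 13.7% of all windows. A match describes letters only and is no evidence of binding.

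The filtered libraries (cells with more than 200 and fewer than 6000 genes and under 10% mitochondrial UMIs) held 4434 C57BL/6 cells, 5970 BM only cells and 5557 BM + Spl cells, with median UMI counts of 12086.5, 4740 and 6495. The paper states the same limits but reports slightly more C57BL/6 cells and far fewer cells in both BMT libraries. The cells described here are therefore not the set that it analysed, and why the numbers differ was not tested. The C57BL/6 file was written by Cell Ranger 3.0.2 and the BMT files by Cell Ranger 7.0.0 with another gene list, and the median mitochondrial share before filtering was 6.52% in C57BL/6 against 0.688% and 0.512% in the BMT libraries. The paper lists kits for both transcript ends without saying which library used which, so the chemistry may differ too. Values of the C57BL/6 library are therefore set beside the others and no ratio to them is given. The BMT libraries shared 43 cell barcodes with each other and 0 with C57BL/6. Cells were clustered jointly without the 9 members, the other Klr genes or T cell receptor segments among the variable genes, and clusters were named from marker lists. NKT1-like cells numbered 908 in C57BL/6, 1998 in BM only and 641 in BM + Spl, which was 20.5%, 33.5% and 11.5% of the cells. NKT2-like cells numbered 1383, 835 and 1237.

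Klrd1 (CD94) was counted at 73.4 CPM (UMIs of the gene per 1000000 UMIs summed over the cells, 95% interval 71.2 to 75.6) in C57BL/6, 232 CPM (227 to 237) in BM only and 108 CPM (105 to 111) in BM + Spl. Klrc1 (NKG2A) stood at 13.2 CPM (12.3 to 14.2), 65.7 CPM (63.1 to 68.5) and 33.5 CPM (31.8 to 35.3) in the same order. For both genes BM only was above BM + Spl.

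Klrc2 (NKG2C) was at 28.5 CPM (27.1 to 29.9) in C57BL/6, 23.6 CPM (22.1 to 25.3) in BM only and 2.09 CPM (1.68 to 2.57) in BM + Spl. Klre1, whose product pairs with the KLRI receptors, was at 14.5 CPM (13.5 to 15.5), 31.5 CPM (29.7 to 33.4) and 4.01 CPM (3.44 to 4.66). Klrb1c (NK1.1) was at 40.0 CPM (38.4 to 41.6), 51.5 CPM (49.2 to 54.0) and 5.98 CPM (5.28 to 6.76). These 3 genes were lowest by far in BM + Spl, where Klrc2 had 90 UMIs, Klre1 173 UMIs and Klrb1c 258 UMIs in the whole library.

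Klrk1 (NKG2D) was at 50.04 CPM (48.2 to 51.9) in C57BL/6, 91.7 CPM (88.5 to 94.9) in BM only and 32.5 CPM (30.9 to 34.3) in BM + Spl. Its adaptor Hcst (DAP10) was far more evenly spread, at 284 CPM (279 to 288), 532 CPM (524 to 540) and 353 CPM (348 to 359). Cd160, a GPI-anchored receptor of the immunoglobulin family that binds HVEM, was at 54.8 CPM (52.9 to 56.7), 67.4 CPM (64.7 to 70.2) and 35.9 CPM (34.1 to 37.7). Tyrobp (DAP12) ran the other way, with 3.54 CPM (3.07 to 4.05), 309 CPM (303 to 315) and 563 CPM (556 to 570).

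**Figure D1:**
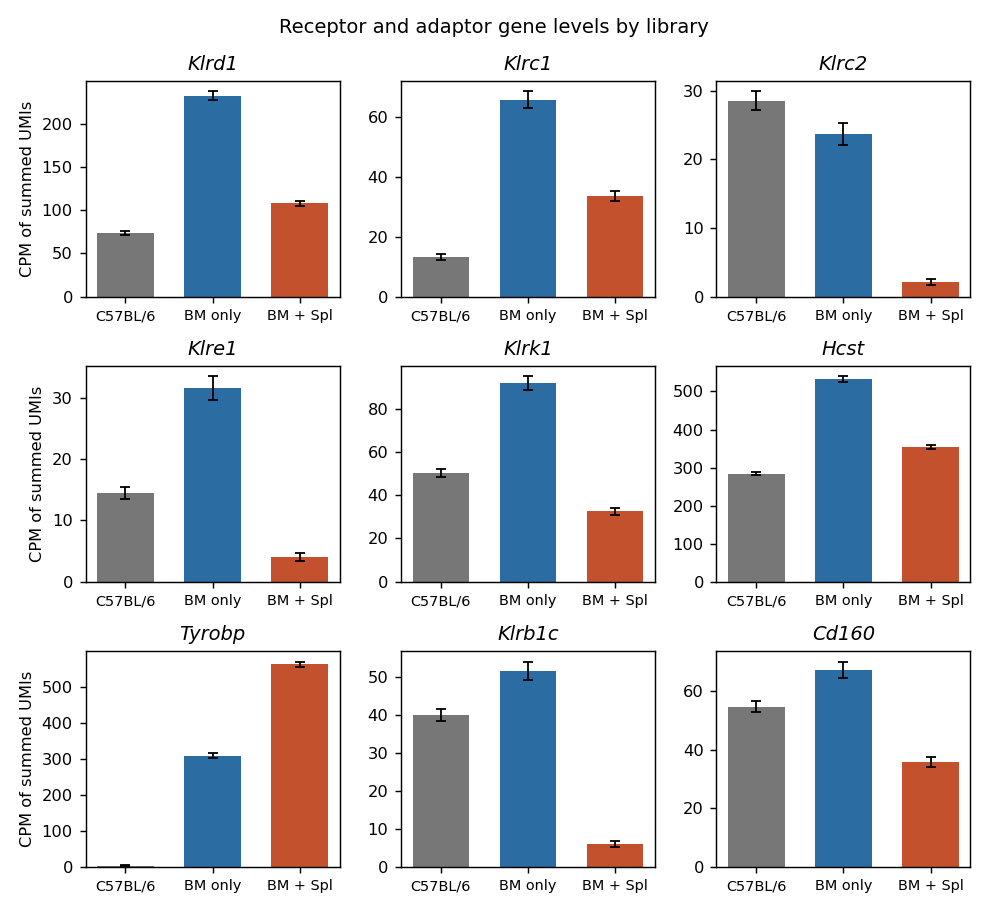
Level of each of the 9 genes in the 3 libraries (y axis, CPM of the summed UMIs of all filtered cells, each panel on its own scale from 0). Bars are 1 library each, and black lines are exact 95% Poisson intervals of counting. Klrc2, Klre1 and Klrb1c nearly vanish in BM + Spl, at 2.09, 4.01 and 5.98 CPM, while Tyrobp is highest there at 563 CPM.

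With every cell thinned to 2700 UMIs, which left 4419, 5011 and 4989 cells and left out 15, 959 and 568 shallower ones, the share of cells with a Klrd1 UMI was 16.6% in C57BL/6, 38.0% in BM only and 16.7% in BM + Spl (24.02%, 43.2% and 22.04% without thinning). Klrb1c was found in 13.9%, 14.4% and 1.74% of thinned cells (26.3%, 19.7% and 3.17% without thinning). Hcst was found in 54.9%, 71.1% and 59.7% of them (93.1%, 81.7% and 81.8%). B cell-like clusters, which should lack Klrd1 and Klrb1c, had a Klrd1 UMI in 9 of 80 BM only cells (11.2%, interval 5.28% to 20.3%, median 6151.5 UMIs) and in 3 of 58 BM + Spl cells (5.17%, 1.08% to 14.4%, median 7925 UMIs). The 9 and 3 cells held 21 and 16 Klrd1 UMIs. A V beta segment was called in 10 of the 80 and 13 of the 58 cells. Doublets were kept, and their part beside free RNA in these shares was not tested. A Klrb1c UMI was found in 3 of 80 and 1 of 58 of these B cell-like cells (3.75% and 1.72%), and the latter share had a wide interval (0.0436% to 9.24%). Larger classes of BM + Spl were lower, with Klrb1c in 1 of 651 regulatory T cell-like cells (0.154%, up to 0.853%) and in 0 of 360 plasmacytoid dendritic cell-like cells (exact upper limit 1.02%), below the 3.17% of all BM + Spl cells.

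The levels of the members were compared next between NKT1-like and NKT2-like cells. In C57BL/6, Klrd1 was at 492 CPM (474 to 510) in NKT1-like cells and at 7.34 CPM in NKT2-like cells. Corresponding values were 599 CPM and 17.6 CPM in BM only, and 507 CPM and 5.89 CPM in BM + Spl. NKT1-like levels of Klrc1 were 106 CPM in C57BL/6, 186 CPM in BM only and 192 CPM in BM + Spl, against 0.238, 2.10 and 1.09 CPM in NKT2-like cells. Klrk1 was at 372, 259 and 215 CPM in NKT1-like cells and at 3.62, 4.89 and 0.925 CPM in NKT2-like cells. These 3 genes were thus low in NKT2-like cells, known for making IL-4, in each library. Cd160 was not, at 35.9, 35.4 and 30.5 CPM in NKT2-like cells, which gave 23.3% of all Cd160 UMIs in C57BL/6.

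Past 1.5-fold, the call line used throughout for genes with at least 50 UMIs over both groups, 9 of 9 members were higher in the NKT1-like cells when set against NKT2-like cells of C57BL/6, where 16.4% of all genes tested were higher. The same count was 9 of 9 in BM only (18.0% of all genes) and 9 of 9 in BM + Spl (18.8%). Median log2 ratios over the members were 6.07, 5.73 and 6.43, against 0.06, 0.01 and 0.04 over all genes tested. Klrd1 and Klrk1 were among the 10 genes that led the larger NKT1-like cluster, so these differences describe the cluster. Hcst and Cd160 were the least exclusive, with log2 ratios of 1.32 and 1.93 in C57BL/6, 1.29 and 1.91 in BM only, and 1.07 and 2.07 in BM + Spl. Among the other lectin-like receptors, a list of Ly49 and related genes, 9 of 10 genes with enough UMIs were higher in the NKT1-like cells of C57BL/6, among them Klra9 (Ly49I) at 293 against 3.67 CPM and Klra5 (Ly49E) at 96.4 against 0.381 CPM.

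Outside the NKT1-like clusters, Klrd1 was high in a few places. An unnamed cluster led by Ccl1, Penk, Tnfsf8, Igfbp7 and Sostdc1 held 101 cells in C57BL/6, 237 in BM only and 764 in BM + Spl and is called the Ccl1/Penk cluster here. It had Klrd1 at 90.6, 197 and 308 CPM, Klrc1 at 2.75, 96.9 and 153 CPM and Klrk1 at 20.1, 63.4 and 116 CPM. The same cluster had Klrb1c at 21.0 CPM in C57BL/6 (23 UMIs), close to its Klrk1 level there. In the BMT libraries it had almost no Klrb1c, with 3.62 CPM in BM only and 0.221 CPM in BM + Spl. In BM + Spl it gave 29.9% of all Klrd1 UMIs, 47.7% of all Klrc1 UMIs and 37.3% of all Klrk1 UMIs of the library, and 0.388% of the Klrb1c UMIs. NKT1-like cells gave 31.4%, 38.2%, 44.2% and 27.5% of them. In BM only, by contrast, the Ccl1/Penk cluster gave 2.69% of the Klrd1 UMIs and NKT1-like cells 66.2%.

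Interferon-like cells, led by Ifit3, Ifit1 and Rsad2, differed between the BMT libraries. Their Klrd1 level was 65.5 CPM in C57BL/6, 509 CPM in BM only and 61.7 CPM in BM + Spl, and their Klrc1 level was 7.20, 104 and 12.8 CPM. Klrb1c in these cells was at 73.3, 125 and 36.9 CPM. This class held 36.8% of all Klrb1c UMIs in BM + Spl, more than the 27.5% in NKT1-like cells.

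**Figure D2:**
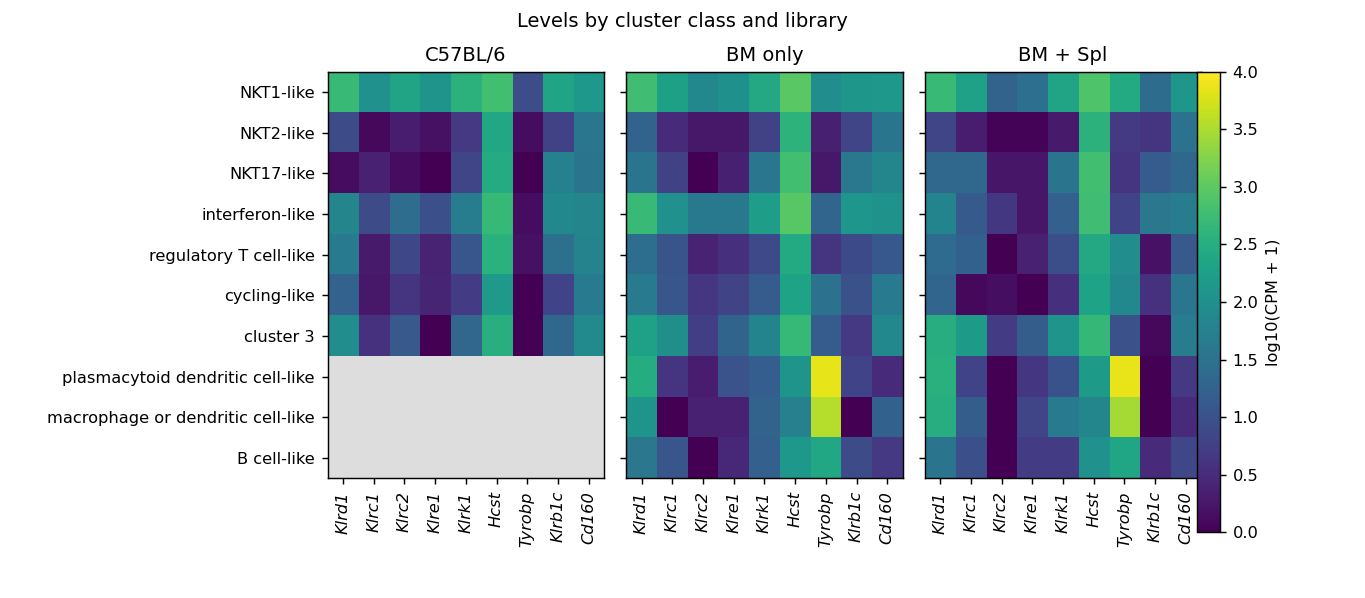
Levels of the 9 genes (columns) in cluster classes (rows) of each library (panels), as log10(CPM + 1) on 1 colour scale from 0 to 4; grey marks classes with fewer than 20 cells, and cluster 3 is the Ccl1/Penk cluster. NKT1-like rows are dimmest for Tyrobp in C57BL/6 (7.75 CPM) and for Klrb1c, Klrc2 and Klre1 in BM + Spl (24.7, 17.7 and 28.1 CPM), and Tyrobp is brightest in plasmacytoid dendritic cell-like cells.

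Tyrobp was mostly outside T cells. Plasmacytoid dendritic cell-like cells, which had Siglech, Cox6a2, Irf8 and Tyrobp itself among their leading genes, numbered 137 in BM only and 360 in BM + Spl and had 7027 and 7338 CPM of Tyrobp. They gave 61.7% of all Tyrobp UMIs in BM only and 84.5% in BM + Spl. Macrophage or dendritic cell-like cells added 25.5% and 6.06%. The 7 plasmacytoid dendritic cell markers summed to 504 CPM in BM only and 1013 CPM in BM + Spl. Their sum of 173 CPM in C57BL/6, which had 6 such cells, came with 218 CPM in its NKT2-like and 222 CPM in its cycling-like cells. Siglech stood at 25.5 and 25.3 UMIs per 100 Tyrobp UMIs in plasmacytoid dendritic cell-like cells of BM only and BM + Spl, and at 0.125 and 0.125 in NKT1-like cells. Klrd1 was also counted at 296 CPM (263 to 333) and 347 CPM (325 to 369) in plasmacytoid dendritic cell-like cells, which gave 3.47% of all Klrd1 UMIs in BM only and 20.8% in BM + Spl. In the same cells Klrk1 was at 14.8 and 9.31 CPM and Klrb1c at 5.29 CPM and 0 CPM.

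Tyrobp within NKT1-like cells was concentrated in few cells. It was at 89.7 CPM (83.6 to 96.2) in BM only and 278 CPM (259 to 298) in BM + Spl. Of these cells, 1994 and 639 had no UMI of Siglech, Lyz2, Csf1r, C1qa or C1qb, and among them 183 and 47 had a Tyrobp UMI. The 10 cells with most Tyrobp held 29.4% and 51.8% of the Tyrobp UMIs of those cells. At a finer clustering (resolution 1.2), 26 BM only and 16 BM + Spl cells formed an NK or ILC1-like cluster with Tyrobp at 2537 and 3467 CPM, Ncr1 (NKp46) at 534 and 569 CPM and Cd3e at 39.3 and 213 CPM. Only 3 of the 26 and 3 of the 16 had a called V beta segment. Their Klrd1 was at 1257 and 1938 CPM and their Klrb1c at 39.3 and 17.8 CPM.

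Compared with BM only, BM + Spl had 8 of the 9 members lower by over 1.5-fold, where 8.28% of all 12802 genes tested were lower. Only Tyrobp was higher, where 6.83% of genes were higher. The log2 ratios were -3.50 (-3.83 to -3.19) for Klrc2, -3.11 (-3.30 to -2.92) for Klrb1c and -2.97 (-3.21 to -2.74) for Klre1, levels 7.86- to 11.3-fold below those of BM only. The next group was 1.88- to 2.82-fold below, with Klrk1 at -1.49 (-1.59 to -1.40), Klrd1 at -1.11 (-1.16 to -1.05), Klrc1 at -0.97 (-1.07 to -0.88) and Cd160 at -0.91 (-1.003 to -0.817). Hcst was at -0.59 (-0.62 to -0.56), just past the line, and stood at -0.53 when each cell weighed equally. Tyrobp was at 0.86 (0.83 to 0.90), but at -0.61 without cells that had a UMI of Siglech, Lyz2, Csf1r, C1qa or C1qb, an alternative chosen after the data had been seen.

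Related genes moved in the same comparison. Of 13 other lectin-like receptors with enough UMIs, 10 were lower in BM + Spl and 1 was higher. Klra9 was at 5.70 CPM in BM + Spl against 118 CPM in BM only, Klra5 at 1.62 against 40.4 CPM and Klra7 (Ly49G) at 3.48 against 45.8 CPM. The exception was Klrg1, an inhibitory receptor for cadherins, at 38.4 against 21.1 CPM. Among 17 signalling partners, 0 were lower and 1 was higher (Sh2d1b1, 2.69 against 1.58 CPM). H2-T23, which encodes Qa-1 and is named here as the ligand gene of CD94 with its values known, stayed within the line at 566 against 486 CPM. Of 11 regulators 3 were lower: Tbx21 (T-bet) at 21.0 against 56.8 CPM, Runx3 at 44.0 against 85.3 CPM and Zfp683 (Hobit) at 12.5 against 56.2 CPM. Of 8 other NK-type surface genes 4 were lower, led by Cd7 at 142 against 574 CPM and Slamf7 at 17.6 against 64.3 CPM, and 2 were higher, Tigit at 111 against 56.4 CPM and Crtam at 6.96 against 3.74 CPM. Of 9 ligand genes with enough UMIs, 3 were lower and 0 higher.

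To see how far the shift in clusters went along with these differences, the BM only level of every cluster was weighted by the share of UMIs that the cluster held in BM + Spl. Klrc1 then came to 34.6 CPM, beside 33.5 CPM measured in BM + Spl. Klrd1 came to 133 CPM beside 108 CPM, Klrk1 to 42.5 beside 32.5 CPM, Cd160 to 47.7 beside 35.9 CPM, Hcst to 388 beside 353 CPM and Tyrobp to 519 beside 563 CPM. All of these lay within 1.5-fold of the measured value. The other 3 members did not: the reweighted level of Klrc2 was 9.32 CPM, 4.47-fold above the 2.09 CPM measured, that of Klrb1c was 23.1 CPM, 3.86-fold above 5.98 CPM, and that of Klre1 was 13.8 CPM, 3.44-fold above 4.01 CPM. Taken over all cells, 6 members were thus within 1.5-fold of the reweighted level and 3 were not. Over iNKT V beta cells alone 5 were not: Klrk1 (30.2 CPM reweighted, 13.3 CPM measured) and Klrd1 (89.2 and 55.2 CPM) joined Klrc2, Klre1 and Klrb1c. The reweighting was run for the members only, so the share of all genes past the line is not known for these counts. A sum within the line does not show that levels inside clusters stayed the same. In interferon-like cells Klrc1 was at 104 CPM in BM only and 12.8 CPM in BM + Spl, and Klrd1 at 509 and 61.7 CPM. In the Ccl1/Penk cluster both genes went the other way and were higher in BM + Spl. The reweighting was not repeated at other clustering resolutions.

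**Figure D3:**
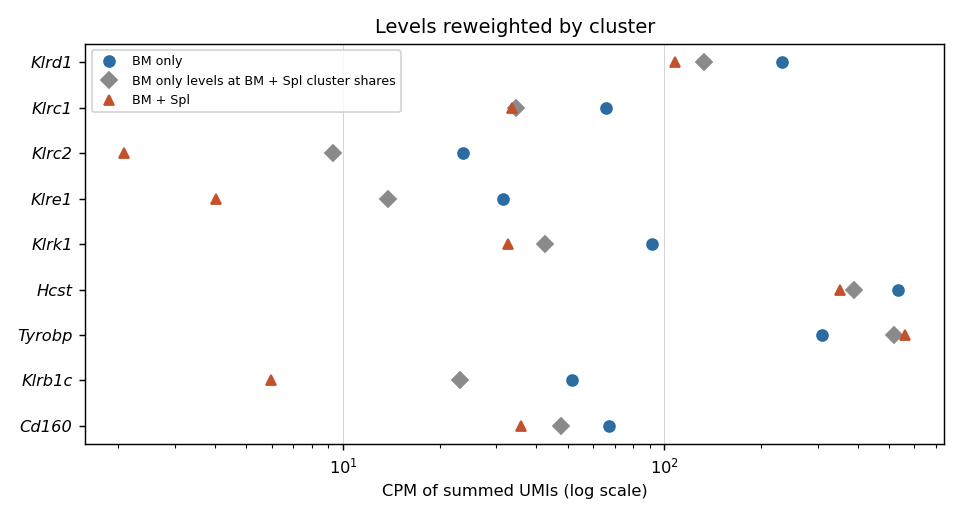
Level of each member in BM only (circles), in BM + Spl (triangles) and as it would be with BM only cluster levels at BM + Spl cluster shares (grey diamonds), in CPM on a log axis. The diamond lies beside the triangle for Klrc1 (34.6 and 33.5 CPM) and far to its right for Klrc2, Klre1 and Klrb1c.

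The tetramer gate does not exclude all other T cells, so cells were next split by their V beta segment. A segment was called where it held at least 80% of the V beta UMIs of a cell. Trbv1, Trbv13-1, Trbv13-2 (counted together with Trbv12-2), Trbv13-3 and Trbv29 were taken as iNKT segments, although conventional T cells use them too. BM only had 3665 cells with an iNKT segment and 951 with another, and BM + Spl had 2586 and 1673. The C57BL/6 library had a call in only 854 cells and was not split. The iNKT share of called cells was 93.9% (92.6% to 94.97%) in NKT1-like cells of BM only and 33.9% (29.8% to 38.2%) in those of BM + Spl. In NKT2-like cells it was 95.9% and 95.3%, and in regulatory T cell-like cells, led by Foxp3 among other genes, 29.8% and 25.6%. The share in NKT1-like cells of BM + Spl thus lay far below that in BM only and above that in regulatory T cell-like cells of the same library (21.9% to 29.6%). What share of them were iNKT cells was not tested.

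In BM only, 7 of 9 members were lower by over 1.5-fold in other V beta than in iNKT V beta cells (7.52% of all genes) and 1, Tyrobp, was higher (12.6% of all genes). The Tyrobp log2 ratio of 1.12 fell to 0.03 without non-T clusters and to 0.19 without cells with plasmacytoid dendritic cell or myeloid UMIs. Klrd1 was at 112 CPM (103 to 122) in other V beta cells and 264 CPM (257 to 270) in iNKT V beta cells, Klrk1 at 47.6 and 105 CPM, and Klrb1c at 19.2 and 64.1 CPM. In BM + Spl 5 of 9 members were higher in other V beta cells (16.5% of all genes) and 1, Klrb1c, was lower (8.03%). The order was turned past the line for Klrd1, Klrc1, Klre1 and Klrk1, whereas Tyrobp was higher in both libraries. Klrd1 was at 159 CPM (152 to 167) in other V beta and 55.2 CPM (52.2 to 58.3) in iNKT V beta cells, Klrc1 at 68.9 and 18.4 CPM, and Klrk1 at 68.0 and 13.3 CPM. Of the 6 lectin-like members only Klrb1c was past the line in the same direction in both libraries. The list of other lectin-like receptors had 11 of 13 genes lower in BM only and 5 of 9 in BM + Spl, with 1 and 4 higher. In BM + Spl, Klrb1c was at 3.11 CPM (2.11 to 4.41) in other V beta and 8.71 CPM (7.55 to 10.0) in iNKT V beta cells. The difference between the 2 libraries in these ratios was not tested.

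Between the libraries, iNKT V beta cells had 8 of 9 members lower in BM + Spl (9.86% of all genes) and 0 higher (7.17%). Their log2 ratios were -2.26 (-2.34 to -2.17) for Klrd1, -2.04 (-2.20 to -1.89) for Klrc1, -2.99 (-3.16 to -2.82) for Klrk1, -4.14 (-4.64 to -3.67) for Klrc2 and -2.88 (-3.10 to -2.67) for Klrb1c. Other V beta cells had 2 of 8 members with enough UMIs lower (5.32%) and 2 higher (4.59%). In these cells Klrc1 was higher at 0.73 (0.50 to 0.96), but stood at 0.45 when each cell weighed equally. V alpha calls gave -0.35 for Klrc1. They put 2763 BM only and 3462 BM + Spl cells in the other group, against 951 and 1673 by V beta. They therefore cannot check the V beta split. Tyrobp was higher at 0.98 (0.84 to 1.11), but stood at -1.96 without cells with plasmacytoid dendritic cell or myeloid UMIs. Klrb1c was lower at -2.63 (-3.27 to -2.03) and Klre1 at -1.09 (-1.64 to -0.55). Klrd1 and Klrk1 stayed within the line at 0.51 (0.37 to 0.66) and 0.51 (0.30 to 0.74). Klrb1c and Klre1 were therefore lower in BM + Spl in both V beta groups.

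These splits mix cell classes, so the same ratios were taken within NKT1-like cells, a comparison added after values had been seen. An iNKT segment was found in 93.9% of called NKT1-like cells in BM only and 33.9% in BM + Spl. The iNKT V beta groups may thus hold unlike shares of iNKT cells, which was not tested. In iNKT V beta cells (1545 BM only, 174 BM + Spl) Klrd1 was at 600 CPM (582 to 619) in BM only and 517 CPM (467 to 570) in BM + Spl, Klrc1 at 185 CPM (175 to 195) and 177 CPM (149 to 210), and Cd160 at 131 and 124 CPM. Klrb1c was at 136 CPM (128 to 145) and 58.7 CPM (42.8 to 78.6), Klre1 at 107 CPM (99.2 to 115) and 54.8 CPM (39.5 to 74.1), Klrc2 at 73.8 CPM (67.6 to 80.5) and 30.0 CPM (19.0 to 45.0), and Klrk1 at 254 CPM (242 to 266) and 136 CPM (111 to 164). At clustering resolution 0.3, however, the log2 ratios were -1.35 for Klrd1, -1.31 for Klrc1, -2.14 for Klrk1 and -0.77 for Cd160, against -0.22, -0.06, -0.90 and -0.08 here, and without the correction between libraries that of Klrb1c was -0.34 against -1.22. With Tyrobp (37.4 and 6.52 CPM), Klrb1c, Klre1, Klrc2 and Klrk1 made 5 of 9 members lower in BM + Spl (11.9% of all genes) and 0 higher (9.59%).

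Other V beta NKT1-like cells (101 BM only, 339 BM + Spl) differed from this in Klrk1. That gene was at 216 CPM (174 to 264) in BM only and 207 CPM (184 to 233) in BM + Spl, within the line. Klrd1 was at 484 CPM (421 to 554) and 431 CPM (397 to 467), and Klrc1 at 142 CPM (109 to 182) and 166 CPM (146 to 189). Klrb1c was at 115 CPM (85.2 to 151) in BM only and 11.4 CPM (6.49 to 18.4) in BM + Spl, a log2 ratio of -3.34 (-4.25 to -2.50), and Klre1 was at 94.1 and 12.8 CPM, a log2 ratio of -2.88 (-3.77 to -2.05). Klrc2 had 20 and 5 UMIs, too few for a call, at 45.9 and 3.55 CPM. In all, 3 of 8 members were lower (9.69% of all genes) and 0 higher (11.7%). Of 15 signalling partners with enough UMIs, 3 were higher, 3 lower and 9 within the line, beside the same shares of all genes. From each side 1 is named here. Sh2d1a, which encodes the adaptor SAP, was at 107 CPM in BM + Spl against 66.6 CPM, and Fcer1g, the FcRγ chain that pairs with NK1.1, at 53.3 against 234 CPM.

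Other V beta and iNKT V beta NKT1-like cells were also set against each other within a library. Klrb1c and Klre1 stood further apart in BM + Spl than in BM only. In BM only 2 of 9 members were lower in other V beta cells (12.8% of all genes), Klrc2 and Cd160, and 1, Tyrobp, was higher (7.09%). Neither lower call remained on thinning. Tyrobp there was 34 UMIs in 5 cells, and its log2 ratio of 1.06 turned to -3.62 with stricter segment calls, -1.06 at resolution 1.2 and -1.14 without NK or ILC1-like cells. Klrb1c there had a log2 ratio of -0.25 (-0.69 to 0.16) and Klre1 of -0.18 (-0.67 to 0.27). In BM + Spl 3 of 7 members with enough UMIs were lower in other V beta cells (6.77%): Klrb1c at -2.37 (-3.29 to -1.52), Klre1 at -2.10 (-2.98 to -1.27) and Cd160 at -0.62 (-1.02 to -0.21). Cd160 had nearly the same ratio in BM only, at -0.63 (-1.14 to -0.16). Without the correction between libraries, Klre1 stood at -0.15 in BM + Spl. Klrk1 was higher at 0.61 (0.28 to 0.95), the only such member (5.66%), and stood at 0.42 when each cell weighed equally. On thinning, 1 member was lower and 0 were higher in other V beta cells of BM + Spl. Klrd1 at -0.26 (-0.45 to -0.08), Klrc1 at -0.10 (-0.41 to 0.22) and Hcst at 0.08 (-0.07 to 0.22) stayed within the line. Of other lectin-like receptors with enough UMIs, 7 of 10 were lower in other V beta cells in BM only. In BM + Spl 3 of 3 were. The median log2 ratios were -1.05 over the 10 genes and -5.77 over the 3, which are unlike sets and cannot be set against each other. Among the Ly49 genes of BM + Spl, Klra1 was at 4.26 CPM in other V beta against 232 CPM in iNKT V beta NKT1-like cells, and Klra3 at 0.710 against 108 CPM.

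**Figure D4:**
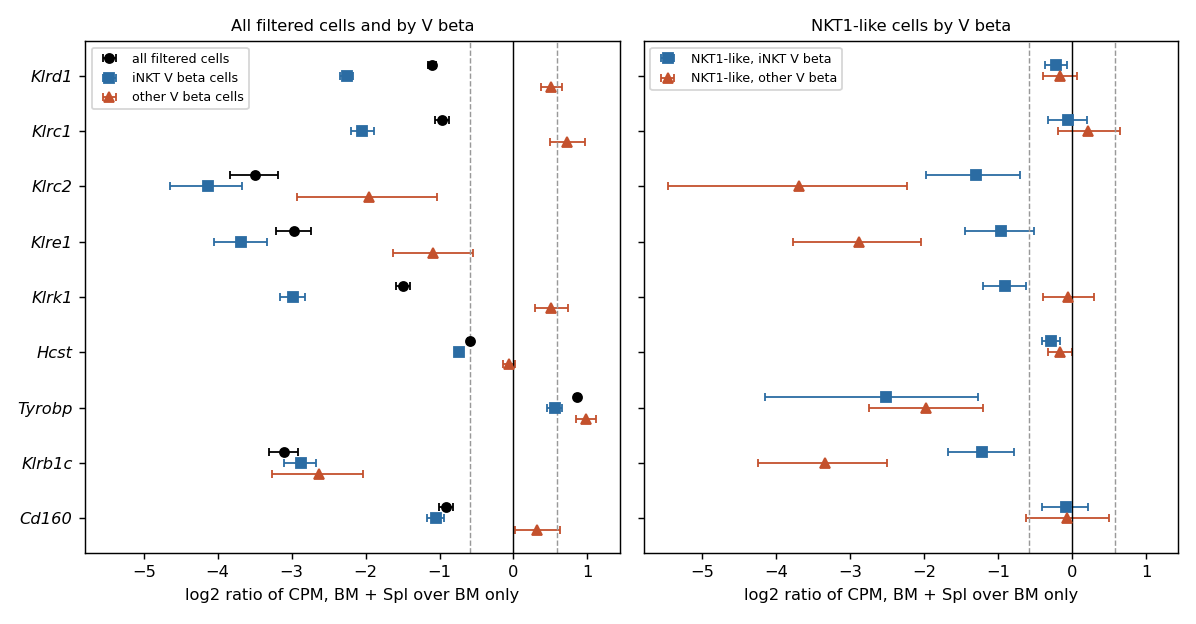
Log2 ratio of CPM in BM + Spl over BM only for each member, in all filtered cells and by V beta (left) and within NKT1-like cells by V beta (right). Lines are exact 95% intervals of counting and dashed lines mark 1.5-fold. On the right Klrd1, Klrc1, Hcst and Cd160 lie between the dashed lines in both V beta groups, whereas Klrb1c lies at -1.22 in iNKT V beta and -3.34 in other V beta cells.

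Single segments gave the spread behind these sums. Cells with 1 segment can share a clone, so segments are no replicates of a library. In NKT1-like cells of BM only, 5 iNKT segments with at least 20 cells had Klrd1 between 584 and 632 CPM, Klrk1 between 244 and 274 CPM and Klrb1c between 127 and 142 CPM. Trbv31, the only other segment with enough cells (27), had Klrb1c at 181 CPM, Klrd1 at 401 CPM and Klrk1 at 204 CPM. In BM + Spl, 4 iNKT segments had Klrb1c between 25.5 and 135 CPM and Klrd1 between 443 and 647 CPM. Klrb1c rests on few UMIs there, 45 in all 174 iNKT V beta and 16 in all 339 other V beta NKT1-like cells of BM + Spl. The 7 other segments of BM + Spl had Klrb1c between 0 and 11.03 CPM, but Klrd1 between 252 and 950 CPM. Klrc1 ranged among them from 51.8 CPM with Trbv19 to 370 CPM with Trbv20 and 420 CPM with Trbv16, which also had the highest Klrd1.

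**Figure D5:**
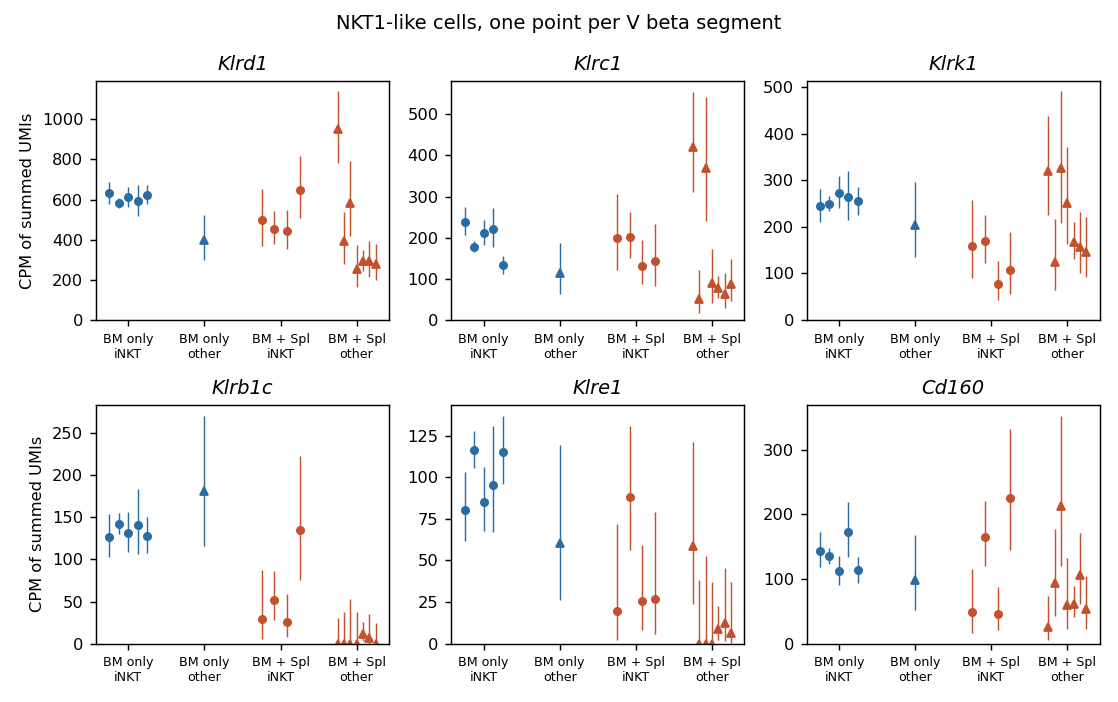
Levels of 6 members in NKT1-like cells (y axis, CPM) with 1 point for each V beta segment that had at least 20 cells, by library and kind of segment. Lines are exact 95% Poisson intervals. In BM + Spl all 7 other segments lie at or below 11.03 CPM for Klrb1c, while their Klrd1 runs from 252 to 950 CPM.

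The Ccl1/Penk cluster had the receptors in cells of both V beta groups. In BM + Spl, Klrd1 was at 342 CPM (312 to 374) in its 249 iNKT V beta cells and 303 CPM (281 to 325) in its 426 other V beta cells, Klrc1 at 177 and 147 CPM and Klrk1 at 110 and 126 CPM. Klrb1c had 0 UMIs in the former and 1 UMI in the latter. The iNKT share of called cells in this cluster was 36.9% (33.2% to 40.6%) in BM + Spl and 29.3% (23.1% to 36.2%) in BM only. In regulatory T cell-like cells it was 25.6% and 29.8%. How many cells of this cluster with an iNKT segment were iNKT cells was not tested.

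How the members met in the same cell was read from cells thinned to 2700 UMIs. In C57BL/6, 71.1% (64.1% to 77.5%) of the 187 cells with a Klrc1 UMI also had Klrd1, against 14.2% of those without. In BM only the shares were 72.8% (69.1% to 76.3%) and 33.1%, and in BM + Spl 67.6% (62.4% to 72.6%) and 12.97%. Within NKT1-like cells of BM only, Klrd1 was found just as often without Klrc1 (75.1%) as with it (75.3%). In NKT1-like cells of BM + Spl the shares stayed apart, with 76.6% (68.3% to 83.6%) of Klrc1 cells and 36.1% (31.4% to 41.1%) of the others having Klrd1. Klrk1 showed the same, with Klrd1 in 76.3% and 74.2% of BM only NKT1-like cells with and without it, and in 69.8% and 33.6% in BM + Spl. The Klrd1 of BM + Spl NKT1-like cells was thus held by a smaller part of them, 46.0% of thinned cells against 75.1% in BM only, at similar summed levels (507 and 599 CPM).

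Hcst, the partner of Klrk1, was found in 90.9% and 90.7% of BM only NKT1-like cells with and without Klrk1, and in 84.4% and 87.2% in BM + Spl. Klrb1c was found in 45.5% of the Klrc1 cells of C57BL/6, 30.5% of those of BM only and 1.76% (0.650% to 3.80%) of those of BM + Spl. Among cells without Klrc1 the shares were 12.5%, 12.1% and 1.74%, so in BM + Spl Klrb1c was as rare without Klrc1 as with it. In the Ccl1/Penk cluster of BM + Spl, 0 of 168 Klrc1 cells had a Klrb1c UMI at this thinned depth, which allows a share of up to 1.79% by a limit of 3 cells and 2.17% by the exact interval. Of its 553 cells without Klrc1, 0.181% had one. Counting the 6 lectin-like members per thinned cell, UMIs of 2 or more were found in 60.6% of NKT1-like cells in C57BL/6, in 68.5% in BM only and in 38.5% in BM + Spl, and no member in 16.4%, 6.41% and 39.1%.

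Klrc1 and Klrc2 met differently in the libraries. Among NKT1-like cells, Klrc2 was found in 60% (51.97% to 67.7%) of C57BL/6 cells with Klrc1 and in 27.0% of those without, but in 11.6% (8.88% to 14.9%) and 19.2% (17.1% to 21.5%) in BM only. The genes share part of their sequence: 384 of 2070 stretches of 90 bases in the Klrc1 transcripts (18.6%) also occur in Klrc2 transcripts. In the last 500 bases of the Klrc1 transcripts that share was 21.9%, and in the first 500 bases 5.05%. From the Klrc2 side it was 384 of 6149 stretches (6.24%), with 5.20% in the last 500 bases and 2.15% in the first. Reads from shared stretches cannot be assigned to 1 gene, so the split between Klrc1 and Klrc2 is uncertain, and its part in the difference between libraries was not tested. Klrk1 and Klre1 shared 0 such stretches with Klrd1.

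Genes with the most similar pattern were ranked by Pearson correlation of log2(CPM + 1) over 43 units, each a cluster within a library with at least 50 cells, among 9904 genes with at least 500 UMIs. The units share libraries and clusters, so the values are descriptions. Members aside, Klrd1 was most like Cdh1 (E-cadherin, r = 0.87), Itga1, Slamf7, Xcl1 and Il12rb2. Klrc1 was most like Fasl (r = 0.93), Klri2, Neurl3, Itga1 and Ifng, genes of cytotoxic and type 1 effector cells for the most part. Klrb1c was most like St3gal6 (r = 0.84), Lpar6, Ctsd, Prag1 and Slc16a6, and Hcst most like Smpd5 (r = 0.88), Fam189b, Ctsw, Tbc1d10c and Flt3l. Among the members, Klrk1 stood at rank 2 for both Klrc1 (r = 0.88) and Klrd1 (r = 0.86). Klrd1 also went with Klre1 (r = 0.81) but less with Klrb1c (r = 0.42), and Klrb1c went with Klrc2 (r = 0.78).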

How the data were processed

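The authors deposited raw UMI counts per gene and cell from 10x libraries, written by Cell Ranger (versions per the file headers above). The genes of both gene tables were joined by identifier. Everything else was computed here with Python 3.11.15, numpy 2.4.6, scipy 1.17.1, igraph 0.11.9 and leidenalg 0.10.2. Cells were filtered as stated, and doublets were kept. Cells were clustered on 2000 variable genes and 20 principal components with a Harmony-type correction rewritten for this purpose and Leiden clustering at resolution 0.6. Clusters were named from marker lists, by a rule set after their leading genes had been seen. UMIs were summed per group of cells. Poisson intervals were used for CPM, conditional binomial intervals for ratios and Clopper-Pearson intervals for shares. With 1 library per condition no test was run, and a call needed 50 UMIs and 1.5-fold. From each gene list up to 6 genes past the line, by UMIs, could be named, and all 9 members were. The members, lists and V beta rule were chosen with earlier results of these data known. The ratio intervals were run on counts simulated from the Poisson model that they assume. That run cannot show how they hold where the UMIs of a gene are concentrated in few cells. Alternatives covered thinning, scaling, filters, V alpha calls, stricter V beta calls and clustering. Those on NK or ILC1-like cells, shared barcodes and plasmacytoid dendritic cell or myeloid UMIs, and all comparisons within NKT1-like cells by V beta, were added after the data had been seen.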

Additional observations from a re-analysis of the deposited data

Results flagged for a closer look

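The difference between other V beta and iNKT V beta cells pointed in opposite directions in the BMT libraries for 5 members, with the counting interval of each log2 ratio on 1 side of 0. The ratio of other V beta over iNKT V beta was -1.24 in BM only and 1.53 in BM + Spl for Klrd1, and -0.86 and 1.91 for Klrc1. It was -1.68 and 0.91 for Klre1, -1.15 and 2.35 for Klrk1, and -0.49 and 0.18 for Hcst, which stayed within 1.5-fold in both libraries. The share of all genes that meet this rule was not counted, so the count of members cannot be set against it. The difference between the libraries was not tested.

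The ratio of BM + Spl over BM only likewise pointed in opposite directions in the V beta groups for 4 members. It was -2.26 in iNKT V beta and 0.51 in other V beta cells for Klrd1, -2.04 and 0.73 for Klrc1, -2.99 and 0.51 for Klrk1, and -1.05 and 0.32 for Cd160. In other V beta cells Klrd1, Klrk1 and Cd160 stayed within 1.5-fold, and the share of all genes was not counted here either. These are the same sums as above set the other way round and add no further support. Within NKT1-like cells the corresponding ratios were -0.22 and -0.17 for Klrd1, -0.06 and 0.22 for Klrc1, -0.90 and -0.06 for Klrk1, and -0.08 and -0.07 for Cd160.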

How the results depend on the processing

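Of 318 alternative counts of members, 279 stayed within 1.5 times the reported count and 39 did not. Of 1304 alternative log2 ratios of members, 1033 stayed within the counting interval of the reported ratio, 262 moved beyond it, and 9 called ratios were reversed. No paired analysis was possible because each condition had 1 library. The alternatives without filters and without non-T clusters gave no value for NKT1-like cells, and V alpha calls gave none where a group held too few cells. Unless a value or the construction below shows it, the cause was not tested.

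At 2-fold in place of 1.5-fold, BM + Spl against BM only had 5 members lower and 0 higher over all cells, 0 higher in other V beta cells, and 3 lower in iNKT V beta NKT1-like cells. Other against iNKT V beta NKT1-like cells then had 0 lower in BM only and 0 higher in BM + Spl. Thinning to 2700 UMIs, which leaves fewer UMIs to call on, gave 1 higher in iNKT V beta cells, 1 higher in other V beta cells and 0 lower in other V beta NKT1-like cells between the libraries, where Klrb1c was at -3.71 and Klre1 at -2.81 with too few UMIs for a call. It gave 0 lower in BM only and 0 higher and 1 lower in BM + Spl for other against iNKT V beta NKT1-like cells. With each cell weighing equally, 0 members were higher in other V beta cells between the libraries and 0 in other V beta NKT1-like cells of BM + Spl. Without the 6% of cells with most UMIs, 1 was lower in other V beta NKT1-like cells of BM only.

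V alpha calls rest on few iNKT cells (55 in BM only, 21 in BM + Spl) against 754 in C57BL/6. Trav11 shares 99.6% of its 90-base stretches with Trav11d, whose part in this was not tested. The paper reports far more cells with the iNKT V alpha chain in both BMT groups. By V alpha 2763 BM only and 3462 BM + Spl cells fell in the other group, against 951 and 1673 by V beta. V alpha calls therefore cannot check the V beta split. These calls gave 3 members lower in iNKT cells, 6 lower and 1 higher in other cells, and 2 higher and 0 lower in other NKT1-like cells of BM only. Klrc1 reversed to 0.0057 for other against iNKT cells of BM only and to -0.35 between the libraries in other cells. Requiring a single V beta segment with 2 UMIs gave 0 higher in other V beta NKT1-like cells of BM only, where Tyrobp reversed to -3.62, and 0 higher in those of BM + Spl. Between the libraries it gave 1 lower in other V beta NKT1-like cells, with Tyrobp reversed to 0.31.

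Without cells with plasmacytoid dendritic cell or myeloid UMIs, 0 members were higher over all cells (Tyrobp -0.61), 0 were higher in other V beta cells of BM only, and 1 was higher in other V beta cells between the libraries (Tyrobp -1.96). Without non-T clusters, 0 were higher in other V beta cells of BM only. Without NK or ILC1-like cells, 0 were higher in other V beta NKT1-like cells of BM only (Tyrobp -1.14) and 0 in those of BM + Spl. Over all NKT1-like cells Tyrobp stayed higher in BM + Spl, at 0.78 or above in the 11 settings. NKT1-like cells with iNKT V beta had it lower there, at 6.52 against 37.4 CPM. Those with other V beta stood at 19.9 against 78.1 CPM. Only 5 and 28 of the 801 Tyrobp UMIs of BM + Spl NKT1-like cells lay in these V beta groups.

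At resolution 1.2, 0 members were higher in other V beta NKT1-like cells of BM only (Tyrobp -1.06) and 2 in those of BM + Spl. At resolution 0.3, 2 were higher in the latter, and between the libraries 8 were lower in iNKT V beta and 7 in all NKT1-like cells. With member genes kept for clustering, 1 was lower in other V beta NKT1-like cells of BM only and 0 were higher in those of BM + Spl. Without the Harmony-type correction, 2 were higher and 1 lower in other V beta NKT1-like cells of BM + Spl (Cd160 reversed to 0.36), and 2 were higher between the libraries.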

Other observations

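An unnamed cluster led by immunoglobulin genes, with a median of 1436 UMIs per cell in BM only and 1604.5 in BM + Spl, held 292 and 146 cells and gave 2.04% and 1.70% of the Klrd1 UMIs of these libraries. NKT17-like cells of C57BL/6 had Klrb1c at 56.3 CPM (48.0 to 65.6) with Klrd1 at 0.341 CPM (1 UMI in 251 cells). Macrophage or dendritic cell-like cells had Klrd1 at 116 CPM (93.2 to 142) in 81 BM only cells and 310.3 CPM (264 to 363) in 49 BM + Spl cells, and had 0 Klrb1c UMIs in both.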
